A study of Mus musculus with 15 samples.

Results

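Spared nerve injury (SNI) was compared with no injury in the lumbar dorsal root ganglia of mice that keep the miR-183 cluster. The comparison used 8 of the 15 libraries of the series, chosen by their labels alone: 5 from naive control mice (replicates 1, 2, 3, 6 and 7) and 3 from control mice with SNI (replicates 15, 18 and 23). None of these mice carried the floxed cluster. Naive replicate 7 and SNI replicates 18 and 23 were wt, and the other 5 were Wnt1-Cre, a driver of Cre recombinase in neural crest cells, from which sensory neurons and their glia descend. All were on a mixed background with mostly C57bl6, and were 3 to 6 months old. Each mouse gave 1 library of messenger RNA from its whole lumbar 4 to 6 ganglia. In SNI the common peroneal and tibial branches of the sciatic nerve are tied and severed while the sural branch is left, so the ganglia mix severed and intact neurons. The labels describe surgery on the left thigh, and the side of the ganglia and the time after injury were not given in the sources used here. The animal numbers of the SNI mice (974 to 976) lay apart from those of the naive mice (1041 to 1080). No date or batch was labelled, so any difference between cohorts cannot be told apart from the injury.

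Dorsal root ganglia hold the cell bodies of the sensory neurons of touch, pain and body position, with satellite glia wrapped around each cell body, Schwann cells along the axons, and resident macrophages. A neuron whose axon is cut in the limb switches on transcription factors such as ATF3 and JUN. These drive growth-associated proteins, and many neuropeptides, receptors and channels change their level. Injured neurons also release signals such as CSF1 that act on macrophages. In bulk tissue, fewer cells of a type and less RNA per cell cannot be told apart.

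Marker genes were checked against the labelled tissue. Avil, an actin-binding protein of sensory neurons, ran at 785 to 949 CPM (counts relative to library size, TMM-scaled) in naive ganglia and at 849, 695 and 588 CPM in SNI replicates 15, 18 and 23. The 11 genes of spinal cord glia and brain summed to 28.3 to 31.8 CPM in naive ganglia and to 35.15, 23.44 and 33.02 CPM in SNI 15, 18 and 23. Of these genes, 4 had enough counts to be tested and 0 were called by edgeR, DESeq2 or limma-voom or had an unadjusted p under 0.05. Such calls compare SNI with naive and cannot show whether that tissue was present in both. The myelin genes Mog and Mobp and the oligodendrocyte factor Olig2 were among those not tested.

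SNI replicate 23 stood apart from the other 7 libraries. It held 5.25 M counts, against 8.78 to 10.8 M in the others, and 7.43% of its counts were mitochondrial, against 2.39 to 3.60%. Short transcripts were also raised in it. For the 1290 tested genes with at most 1000 bases of exon, the median difference from the naive mean was 0.58 in log2 CPM in this library and -0.14 to 0.05 in the others. For the 3559 genes with more than 7000 bases it was -0.21, against -0.02 to 0.04. Gm42418, a predicted gene that holds ribosomal RNA sequence, reached 7998 CPM in replicate 23, against 778 and 916 CPM in replicates 15 and 18 and 153 to 362 CPM in naive ganglia. The first principal component of the 8 libraries held 37.7% of the variance. It placed SNI 15 and 18 at 10.02 and 11.74, SNI 23 at 42.5, and the naive libraries at -14.9 to -10.9. The second held 24.0% and set SNI 18 apart, at 36.2. On it SNI 15 was at -2.60, SNI 23 at -14.3 and the naive libraries at -16.2 to 4.87. Xist, a transcript of females, was at 488 CPM in naive 6, 422 in SNI 15 and 314 in SNI 23, and at most 0.929 CPM in the other 5, so both groups mixed sexes. The part of depth, mitochondrial share and length in the differences below was not tested, and the main results are given with and without replicate 23.

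**Figure D1:**
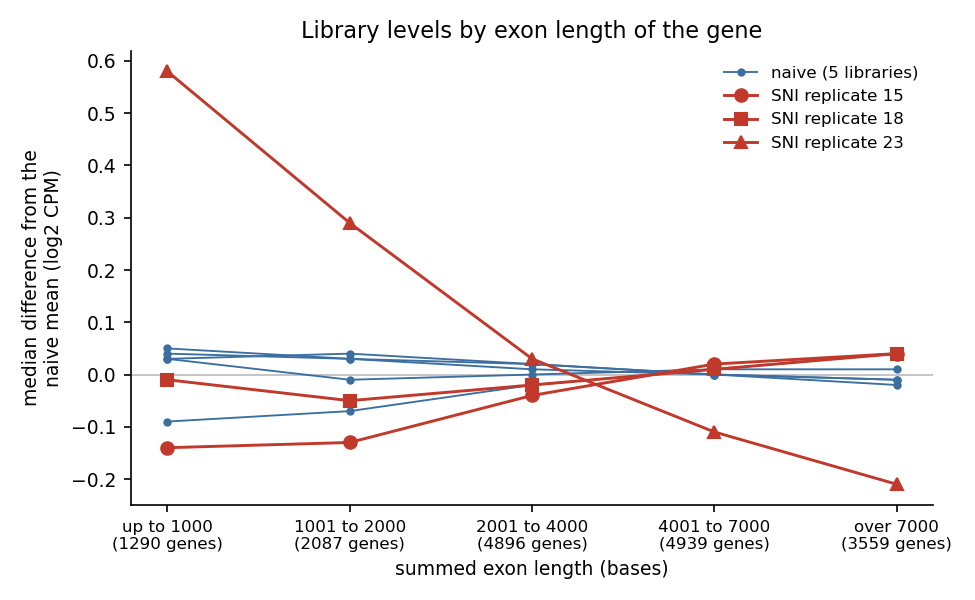
Median difference from the mean of the 5 naive libraries, in log2 CPM, for tested genes in 5 bins of exon length (bases), with 1 line per library. SNI replicate 23 runs from 0.58 in the shortest bin to -0.21 in the longest, and the other 7 libraries stay within -0.14 to 0.05.

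Injury was accompanied by more rises than falls. Of 16976 genes tested, 421 (2.48%) were called at an adjusted p under 0.05 by the quasi-likelihood test of edgeR with Benjamini-Hochberg adjustment, 360 higher and 61 lower in SNI. That fit estimated spread from all 15 libraries, and the 8 control libraries alone gave 213 calls. Without replicate 23 the fit over the series called 796 genes (4.63%), 580 higher and 216 lower. The same 356 genes were called with and without replicate 23, all in the same direction. Their median log2 fold change was 0.90 in each fit, over higher and lower calls together. A further 65 were called only with replicate 23, and 440 only without it. The calls were 1506 without SNI 15, 283 without SNI 18, and 288 to 341 on leaving out a naive library. Within Wnt1-Cre mice only SNI 15 was injured, and within wt mice only naive 7 was uninjured. The 360 genes called higher had a median log2 fold change of 0.856 within Wnt1-Cre mice and 1.04 within wt mice. Those calls came from the same libraries, so positive medians were favoured in advance. Called genes that fell had a median exon length of 5330 bases with replicate 23 and 2642 without it, and those that rose 4115 and 5314, against 4058 bases over all tested genes. A core of 174 genes, 162 higher and 12 lower, was called whichever of the 8 libraries was left out and under each of 8 other settings: the control libraries alone, DESeq2, its size factors, limma-voom, no filter, a Cre term, an Xist term and no mitochondrial genes. The stricter filter and the fits within each Cre status are not among these.

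**Figure D2:**
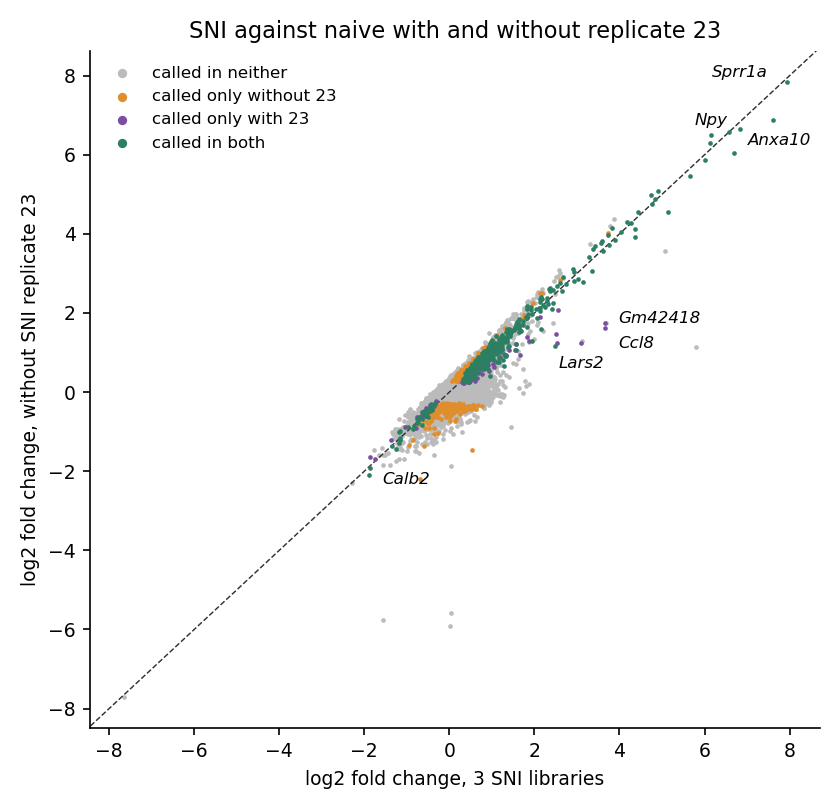
Log2 fold change of SNI against naive with all 3 SNI libraries (x axis) and without SNI replicate 23 (y axis), 1 point per gene tested in both fits, coloured by the fits that called it. Sprr1a, Npy and Calb2 lie near the diagonal, and Gm42418, Ccl8 and Lars2 lie below it.

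Transcription factors of the axotomy response came first. Atf3, a stress-induced bZIP factor (chr1:191170296-191218039, GRCm38), was at 8.76, 8.73, 7.28, 5.47 and 9.05 CPM in naive replicates 1, 2, 3, 6 and 7 and at 148, 152 and 151 CPM in SNI 15, 18 and 23. The SNI libraries lay within a few percent of each other, replicate 23 included. The log2 fold change was 4.26 (SE 0.17, adjusted p = 7.27e-11) with replicate 23 and 4.27 without it. Jun, the AP-1 subunit that partners ATF3, went from 40.1, 40.4, 37.4, 36.7 and 39.0 CPM to 92.4, 87.7 and 72.5 CPM (log2 1.12, SE 0.13, adjusted p = 5.61e-05). Replicate 23 was the lowest of the injured mice here, and the groups did not overlap.

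Sox11, a factor of neuronal development, was at 0.985, 1.61, 0.747, 1.73 and 1.94 CPM in naive ganglia and at 7.20, 7.12 and 4.53 CPM after SNI (log2 2.19, SE 0.26, adjusted p = 8.92e-05). Smad1, a transducer of BMP signals, rose by 0.69 on the log2 scale, and Klf6 by 0.44. Klf6 lost its call when SNI 18 was left out (adjusted p = 0.0919). These were the 5 called members of 25 tested injury factors, all higher, against 2.48% of all genes called. The list median was 0.26 against 0.02 over all tested genes. Without replicate 23 the count was again 5 higher and 0 lower, with medians of 0.18 and 0.00. Of 22 immediate early genes only Atf3 and Jun were called, against 2.48% of all genes, and the list median was 0.01. Without replicate 23, 2 were again called, against 4.63%, with a median of 0.03.

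Several of the most strongly raised genes carry an AP-1 heptamer close to their start. The search used RefSeq windows of GRCm38.p6, from 250 bases before to 50 after each start, on both strands, for TGACTCA (AP-1), TGACGTCA (the cyclic AMP response element, CRE), TGATGCAA (an ATF4 and C/EBP element) and TTCNNNGAA (STAT). Matches were counted per motif, and TGACGTCA holds no TGACTCA. Of 28 strongly changed genes searched, 23 had a window and 7 of those held an AP-1, CRE or ATF4 element. Each is shown with up to 30 flanking bases, 5′ to 3′ on the gene's strand, with the element in capitals (TGAGTCA is TGACTCA read from the other strand). The windows lie at chr3:92485961-92486057 (Sprr1a), chr8:62123337-62123403 and chr8:62123194-62123239 (Anxa10), chr19:34067180-34067246 (Lipn), chr4:145315260-145315326 (Tnfrsf8), chr10:102490589-102490655 (Nts), chr5:31138902-31138969 (Ucn) and chr1:191183406-191183473 (Atf3), all on the minus strand except Lipn.
Sprr1a: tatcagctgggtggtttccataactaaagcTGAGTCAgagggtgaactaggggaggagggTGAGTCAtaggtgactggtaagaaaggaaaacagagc
Anxa10, upstream: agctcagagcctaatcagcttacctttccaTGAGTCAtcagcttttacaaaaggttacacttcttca
Anxa10, near the start: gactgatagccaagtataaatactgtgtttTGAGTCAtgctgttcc
Lipn: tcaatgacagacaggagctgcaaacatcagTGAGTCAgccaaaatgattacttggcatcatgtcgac
Tnfrsf8: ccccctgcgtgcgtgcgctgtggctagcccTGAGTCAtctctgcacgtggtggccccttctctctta
Nts: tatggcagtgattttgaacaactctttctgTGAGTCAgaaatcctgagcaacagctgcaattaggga
Ucn (CRE): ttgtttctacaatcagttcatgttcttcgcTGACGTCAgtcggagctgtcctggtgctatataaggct
Atf3 (ATF4 and C/EBP): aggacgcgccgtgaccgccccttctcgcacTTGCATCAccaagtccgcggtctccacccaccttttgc

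The first base of the element lay 146 and 116 bases upstream of the start in Sprr1a, 180 and 16 in Anxa10, 148 in Lipn, 132 in Tnfrsf8, 207 in Nts, 44 in Ucn and 110 in Atf3. The RefSeq start used for Atf3 lies inside the gene interval given above and not at its outer end. Over the genes called higher, 28 of 266 with a window (10.5%) held TGACTCA, as did 4 of 44 called lower (9.09%), 4.78% of all tested genes and 5.2% of all windows. Without replicate 23 the shares were 7.66% of the higher and 2.61% of the lower genes. TGACGTCA was in 3.38% of the higher genes and 3.31% of all tested genes, against 1.79% of all windows. TGATGCAA was in 1.13%, 0.752% and 0.895%, and TTCNNNGAA in 10.5%, 8.21% and 8.3%. A match is a run of letters in a window and not evidence of binding.

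**Figure D3:**
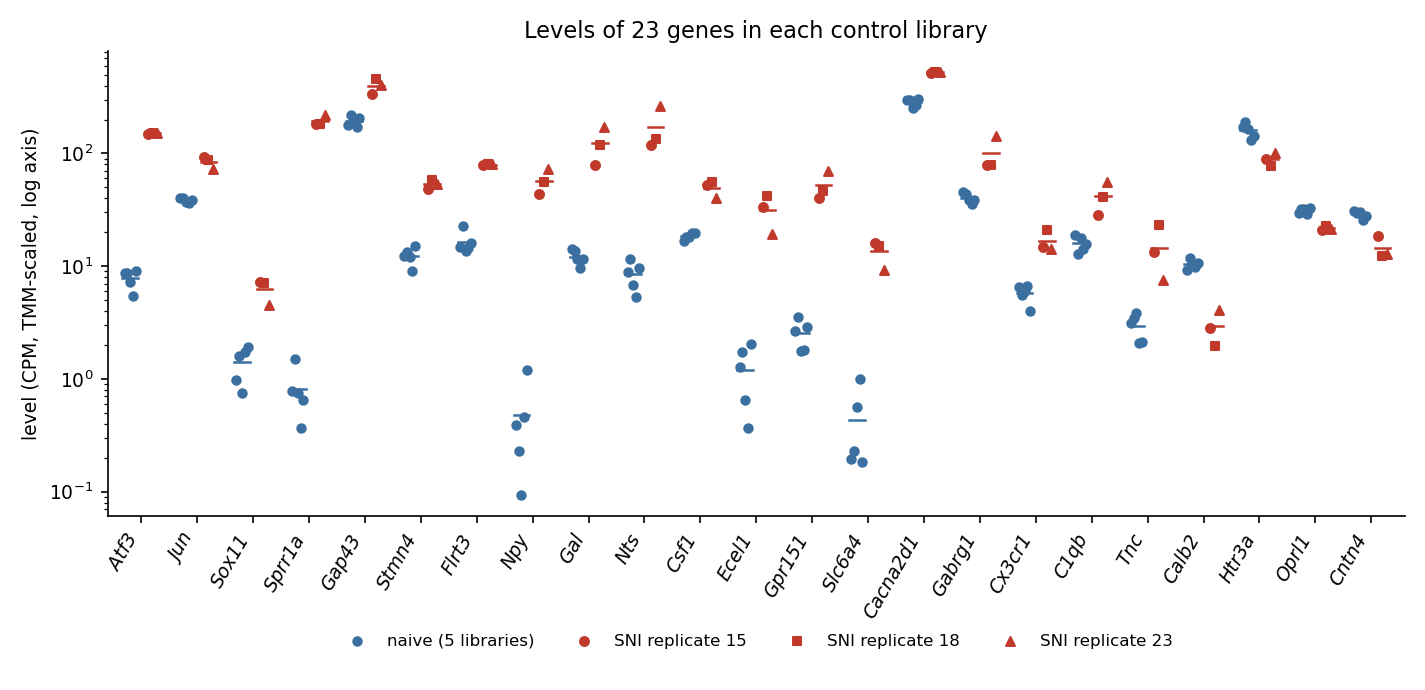
CPM (log axis) of 23 genes in the 5 naive and 3 SNI control libraries, with SNI replicate 23 drawn apart and bars at group means. Sprr1a and Npy show the widest separation of these genes, and Calb2, Htr3a, Oprl1 and Cntn4 lie lower after SNI.

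Growth-associated genes formed the list with the most called members. Of 32 tested, 19 were higher and 0 lower, against 2.48% of all genes called. The list median was 0.81 against 0.02 over all tested genes. Without replicate 23, 17 were higher and 0 lower, against 4.63% called, with a median of 0.64. Sprr1a, a cornified-envelope protein that neurons make after axotomy (chr3:92483952-92485895), was at 0.788, 1.49, 0.747, 0.364 and 0.646 CPM in naive ganglia and 181.8, 182.8 and 217.3 CPM after SNI. Its log2 fold change of 7.93 (SE 0.26, adjusted p = 4.06e-11) was 7.85 without replicate 23. Stmn4, a tubulin-binding stathmin, went from 12.3, 13.3, 12.04, 9.11 and 14.9 CPM to 48.5, 58.4 and 53.7 CPM (log2 2.12). Flrt3, an adhesion protein of growing neurites, went from 14.8, 22.6, 13.6, 14.6 and 16.1 CPM to 78.6, 80.2 and 80.5 CPM (log2 2.29). For Sprr1a, Stmn4 and Flrt3 all SNI libraries lay above all naive ones, and replicate 23 was not the lowest.

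Gap43, the growth-cone protein present in uninjured neurons too, was at 180, 220, 202, 171 and 204 CPM and reached 335, 461 and 402 CPM (log2 1.03, SE 0.11, adjusted p = 1.58e-05). Chl1, a cell adhesion molecule of the L1 family, went from 118 to 139 CPM in naive ganglia to 271, 379 and 272 CPM (log2 1.25, adjusted p = 1.39e-05). Both about doubled or more from a level already high, unlike Sprr1a. Tubb6, a beta tubulin, rose by 1.57 on the log2 scale, Itga7, a laminin receptor subunit, by 0.98, Fst, an inhibitor of activin, by 3.02, and Gadd45a, a growth-arrest gene, by 1.68, each called in all 8 omissions. Ecel1, a neuronal endopeptidase, rose from 0.364 to 2.03 CPM to 33.4, 41.8 and 19.2 CPM (log2 4.73). Marcks, Hspb1, Anxa1 and Stmn2 were called only with replicate 23 and Cdkn1a was called in 4 of the 8 omissions. Rtn4, which encodes the Nogo proteins, rose by 0.51, from 778 to 852 CPM up to 1232, 1114 and 1142 CPM.

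Some genes appeared from near zero. Anxa10, an annexin, had 3 counts over all 5 naive libraries and was at 7.61, 8.88 and 27.0 CPM after SNI, a ratio of 204 with a counting interval of 68.9 to 992 (adjusted p = 1.74e-04). Replicate 23 had its highest level. Lipn, a lipase of skin, had 4 naive counts and was at 7.30, 10.01 and 8.63 CPM (log2 6.57, SE 0.35, adjusted p = 9.36e-08). Tnfrsf8, the receptor CD30, had 1 naive count and was at 1.88, 1.86 and 2.81 CPM (ratio 105, interval 18.04 to 4243). Sh2d1b2, an adaptor of immune receptors, had no naive count and was at 1.36, 0.310 and 3.02 CPM, at least 21.5-fold higher against a floor of 3 counts over the naive libraries. These intervals and floors cover counting error only.

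Of 27 neuropeptides and other secreted messengers tested, 9 were called higher and 0 lower, against 2.48% of all genes called, with a list median of 0.47 (10 higher, 1 lower of 28 and 0.38 without replicate 23). The summed level of the list overlapped between the groups except in replicate 23: it was 1722 to 2174 CPM in naive ganglia and 1728, 1991 and 3920 CPM in SNI 15, 18 and 23. Npy, a peptide that large injured neurons start to make, was at 0.394, 0.230, 0.0934, 0.456 and 1.2 CPM in naive ganglia and 43.5, 56.4 and 72.3 CPM after SNI (log2 6.84, SE 0.44, adjusted p = 4.4e-07). Nts, the peptide neurotensin, went from 8.96, 11.5, 6.82, 5.38 and 9.60 CPM to 119, 135 and 264 CPM (log2 4.35, and 3.93 without replicate 23). Gal, the peptide galanin, went from 14.2, 13.6, 11.5, 9.66 and 11.6 CPM to 79.5, 120 and 172 CPM (log2 3.35, and 3.05 without it). In all of these genes replicate 23 was the highest library, and replicates 15 and 18 by themselves lay above every naive one.

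Ucn and Crh, peptides of the stress hormone family, were both switched on at low levels. Ucn had 1 naive count and was at 1.88, 0.929 and 2.37 CPM (ratio 81.7, interval 13.8 to 3310), and Crh had 4 naive counts and was at 1.04, 1.55 and 1.51 CPM (log2 3.90, adjusted p = 2.79e-04). Csf1, the growth factor of macrophages, was at 16.8, 18.03, 18.1, 19.5 and 19.9 CPM and reached 52.1, 56.3 and 40.1 CPM (log2 1.43, SE 0.14, adjusted p = 6.47e-06). Fgf3, a fibroblast growth factor, was at most 0.554 CPM in naive ganglia and at 5.11, 7.23 and 4.53 CPM after SNI. Adcyap1, which encodes PACAP, rose by 0.78, and Igf1 by 0.84, which lost its call without SNI 18 (adjusted p = 0.102). Calca, the precursor of the pain peptide CGRP, turned on replicate 23: it was at 1130 to 1393 CPM in naive ganglia and at 879, 924 and 2126 CPM after SNI, a log2 difference of 0.01 with that library and a called fall of 0.53 on the log2 scale without it (adjusted p = 0.00407). Gdnf, a survival factor from Schwann cells, was at 0.939, 2.06 and 0.432 CPM in SNI 15, 18 and 23 and at most 0.230 CPM in naive ganglia. It passed the filter only without replicate 23. Passing depends on libraries with high levels, so no fold change is given. Bdnf, at 23.8 to 38.8 CPM in naive ganglia and 33.6, 50.3 and 80.7 CPM after SNI, was not called (log2 0.79, adjusted p = 0.122).

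Of 30 peptide receptors tested, 4 were called higher and 1 lower, against 2.48% of all genes called, with a list median of 0.13 (4 higher, 1 lower of 31 and 0.15 without replicate 23). Their summed level was 339.7 to 367.7 CPM in naive ganglia and 486, 461 and 467 CPM after SNI, with no overlap. That sum includes the called rises of Cckbr, Cckar and Gpr151 given next. Cckbr, a cholecystokinin receptor, was at 0.197, 0.689, 0, 0.0911 and 0.369 CPM in naive ganglia and 20.8, 20.96 and 13.8 CPM after SNI (log2 6.13). Cckar, the other such receptor, went from 21.7 to 28.2 CPM up to 55.0, 48.2 and 41.2 CPM (log2 0.95). Cckbr stayed below Cckar in every SNI library. Gpr151, an orphan receptor of injured neurons, rose from 1.77 to 3.56 CPM to 40.3, 46.8 and 69.7 CPM (log2 4.36), and Npy1r, a receptor of NPY, rose by 0.81. Oprl1, the nociceptin receptor, was lower at 21.1, 22.9 and 21.4 CPM against 29.4, 32.2, 31.8, 29.0 and 32.5 CPM (fell by 0.51 on the log2 scale, SE 0.10, adjusted p = 0.00859), with no overlap.

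Receptors of growth factors and cytokines were called higher in 8 of 39 and lower in 0, against 2.48% of all genes called, with a median of 0.11. Without replicate 23 these were 8 and 0, against 4.63%, with a median of 0.22. Tnfrsf12a, the TWEAK receptor, rose by 1.83 on the log2 scale and Acvr1, a BMP receptor, by 1.01. Gfra1, the binding subunit of the GDNF receptor, was at 152, 152, 173, 149 and 138 CPM and reached 337, 309 and 205 CPM (log2 0.90). Il1r1, the receptor of interleukin 1, rose by 0.87. Met (adjusted p = 0.0467) and Egfr (adjusted p = 0.0494) were close to the threshold and lost the call when SNI 18 was left out (0.238 and 0.210).

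Among guidance molecules, 3 of 63 were higher and 0 lower, against 2.48% of all genes called, with a median of -0.01. Sema6a, a transmembrane semaphorin, was at 15.1, 13.9, 14.5, 11.2 and 10.2 CPM in naive ganglia and 80.5, 72.4 and 46.4 CPM after SNI (log2 2.37, SE 0.18, adjusted p = 7.23e-07). Epha3, an ephrin receptor, rose by 1.41 and Sema3c, a secreted semaphorin, by 0.61. Without replicate 23 the count was 7 higher and 0 lower, against 4.63% of all genes called, with Ntn4, Sema4f, Plxna4 and Ephb2 added.

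Of 135 ion channel genes tested in 6 lists, 4 (2.96%) were called, a share near the 2.48% over all tested genes. Cacna2d1, a calcium channel subunit that gabapentin binds, was the 1 called member of 20 calcium channel genes. It was at 298, 295, 254, 270 and 303 CPM in naive ganglia and 513, 529 and 528 CPM after SNI (log2 0.88, SE 0.09, adjusted p = 9.67e-06). Its relative Cacna2d2 was at 43.9 to 52.5 CPM and at 49.1, 43.3 and 27.8 CPM and was not called. Kcnk16, a two-pore potassium channel, was at most 0.182 CPM in naive ganglia and at 2.50, 2.38 and 2.59 CPM after SNI (log2 4.77), the 1 call among 22 two-pore and inward rectifier genes. Scn1a, a sodium channel of large neurons, was lower by the fit with replicate 23 (fell by 0.44 on the log2 scale, adjusted p = 0.0366) and lost its call without it (adjusted p = 0.0629); it was called in 1 of 8 omissions. It was the only call among 15 sodium channel genes, whose median was -0.12. Without replicate 23, 0 were called and the median was -0.06. Scn3a, the embryonic sodium channel, was at 9.71 to 11.7 CPM and at 10.5, 10.5 and 9.93 CPM (log2 -0.02).

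None of 4 HCN channel genes and none of 26 TRP, Piezo and acid-sensing channel genes was called by edgeR, with or without replicate 23. At an unadjusted p under 0.05 there were 1 and 2, and DESeq2 and limma-voom each called 0 and 1. The TRP, Piezo and acid-sensing list had a median of -0.15, and of -0.06 without replicate 23. Trpv1, the capsaicin receptor, was at 137 to 184 CPM in naive ganglia and at 152, 140 and 140 CPM after SNI (log2 -0.19, SE 0.13). Of 48 voltage-gated potassium channel genes only Kcnip1 was called, lower, and in 1 of 8 omissions. Kcnmb1, a subunit of calcium-activated potassium channels, was at 63.2 to 69.9 CPM in naive ganglia and at 40.8 and 29.7 CPM in SNI 15 and 18, but at 86.5 CPM in replicate 23. It was called lower only without that library (fell by 0.91 on the log2 scale, adjusted p = 3.4e-05), as Kcnq3 was called higher (log2 0.61).

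Receptors of transmitters split in direction. Slc6a4, the serotonin transporter, was at 0.197, 0.230, 0.560, 1.00 and 0.185 CPM in naive ganglia and 16.2, 15.1 and 9.28 CPM after SNI (log2 4.91, adjusted p = 9.79e-07). Htr3a, the serotonin-gated channel, went the other way, from 173, 191, 164, 132 and 142 CPM to 89.1, 77.4 and 101 CPM (fell by 0.85 on the log2 scale, SE 0.15, adjusted p = 0.00357). Its partner subunit Htr3b was called lower only without replicate 23 (fell by 0.74 on the log2 scale, adjusted p = 0.0155). Gabrg1, a GABA-A receptor subunit, was at 45.2, 44.1, 39.0, 35.7 and 38.8 CPM and at 78.7, 79.5 and 142 CPM (log2 1.29), again highest in replicate 23. Gria2, the AMPA receptor subunit that limits calcium entry, was lower (fell by 0.51 on the log2 scale, adjusted p = 0.0169). It was the only call of 18 glutamate receptor genes, against 2.48% of all genes, with a list median of -0.16. Without replicate 23 there was again 1 fall, against 4.63% of all genes called, with a median of -0.13.

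Each list of neuron class markers had 0 to 3 calls, against 2.48% of all tested genes called. Such counts say little about lists this small. Of 9 markers of somatostatin pruriceptors 2 were called higher, Nts and Htr1f, with a list median of 0.15. The list summed to 600.1 to 679.5 CPM in naive ganglia and 883, 785 and 930 CPM after SNI, and this sum includes the rise of Nts given above. Of the 9, 8 had a positive log2 fold change, and 6 without replicate 23. Sst (0.54), Nppb (0.51), Cysltr2 (0.15) and Osmr (-0.14) were not called, and Nppb was at -0.49 without replicate 23. Htr1f, a serotonin receptor, lost its call without SNI 18 (adjusted p = 0.0503). Of 11 peptidergic nociceptor markers only Adcyap1 was called, and the list summed to 2519 to 2934 CPM in naive ganglia, to 2247 and 2134 CPM in SNI 15 and 18, below every naive library, and to 3755 CPM in SNI 23, above every naive library. None of 13 non-peptidergic nociceptor markers and none of 8 markers of C low-threshold mechanoreceptors was called by edgeR, DESeq2 or limma-voom, and 1 and 0 had an unadjusted p under 0.05. The non-peptidergic list had a median of -0.14, and of -0.23 without replicate 23. Mrgprd, a receptor of non-peptidergic nociceptors, was at 135 to 249 CPM in naive ganglia and at 169, 116 and 187 CPM after SNI. Without replicate 23, 3 of 24 A-fibre markers were called, all lower. With that library only Calb2, the calcium buffer calretinin, was called. It was at 9.26, 11.7, 10.5, 9.84 and 10.6 CPM and fell to 2.82, 1.96 and 4.10 CPM (fell by 1.88 on the log2 scale, SE 0.22, adjusted p = 6.3e-05), and fell by 2.11 without replicate 23. Of 18 pan-neuronal genes 3 were higher and 0 lower, with a median of 0.04 (4 higher, 0 lower and 0.05 without replicate 23). Their summed level was 15310 to 17410 CPM in naive ganglia and 17320, 16570 and 17610 CPM after SNI.

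The genes that fell were fewer and moved less, with a median of -0.58 over the called falls against 0.97 over the called rises. The 12 falls in the core were Calb2, Cntn4, Htr3a, Oprl1, Ckmt1, Tnfaip8l3, Rab37, Plcd4, Pigz, Pstpip1, 1700001L05Rik and F730016J06Rik. Cntn4, an axonal contactin, was at 30.6, 29.6, 30.1, 25.6 and 28.1 CPM and fell to 18.7, 12.3 and 12.7 CPM (fell by 0.97 on the log2 scale). Ckmt1, the mitochondrial creatine kinase, was the most abundant of these, at 245 to 303 CPM against 192, 186 and 201 CPM. Rab37, a small GTPase of secretion, went from 52.2 to 64.9 CPM to 40.4, 36.7 and 32.4 CPM. In each of these 4 genes (Cntn4, Ckmt1, Rab37 and Calb2) every SNI library lay below every naive one, as in 8.21% of all tested genes in either direction.

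Of 38 macrophage genes tested, 11 were called higher and 0 lower, against 2.48% called over all genes, with a list median of 0.72 (9 and 0 without replicate 23, against 4.63%, with a median of 0.48). Cx3cr1, the fractalkine receptor, was at 6.499, 5.51, 6.07, 6.65 and 3.97 CPM in naive ganglia and 14.7, 21.1 and 14.2 CPM after SNI (log2 1.55). C1qb, a chain of the complement starter C1q, went from 18.8, 12.8, 17.9, 14.3 and 15.9 CPM to 28.6, 41.1 and 55.9 CPM (log2 1.37). Csf1r, the receptor of CSF1, rose by 0.55, Mrc1, a mannose receptor, by 0.89, and Lgals3, the lectin galectin 3, by 1.15, each called in all 8 omissions. Trem2, a lipid receptor, rose by 1.51 and lost its call without SNI 18 (adjusted p = 0.0616). The summed level of the list was 2234 to 2475 CPM in naive ganglia and 2666, 2811 and 3498 CPM after SNI.

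Other immune lists had 0 to 2 calls each by edgeR, against 2.48% of all genes called, and such counts say little about lists this short. None of 8 tested lymphocyte genes, 15 neutrophil and mast cell genes or 34 antigen presentation and interferon genes was called by edgeR, DESeq2 or limma-voom, and 1, 5 and 4 had an unadjusted p under 0.05. Cd3d, Cd3e and Cd8a were too low to be tested. Of 33 complement, chemokine and cytokine genes 2 were called higher by edgeR, Csf1 and Ccl8, and 5 each by DESeq2 and limma-voom. That list had a median of 0.42, and of 0.38 without replicate 23. It summed to 261.6 to 334.1 CPM in naive ganglia and to 371.9, 483.1 and 457.1 CPM after SNI, with no overlap. That sum includes the called rise of Csf1 given above and that of Ccl8, and the list without them was not examined. Ccl8, a chemokine, was called only with replicate 23: it was at 0.729 to 1.67 CPM in naive ganglia, at 3.96 and 2.99 CPM in SNI 15 and 18, and at 39.5 CPM in SNI 23 (log2 3.67, adjusted p = 0.039, and 1.63, adjusted p = 0.138 without it).

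Glial and matrix genes gave a handful of rises. Gfap, the filament of reactive satellite glia, was at 2.46, 4.59, 2.61, 1.46 and 1.85 CPM in naive ganglia and 6.78, 14.97 and 4.53 CPM after SNI, where replicate 23 overlapped the naive range (log2 1.82, adjusted p = 0.0132, and 0.127 without SNI 18). Of 18 satellite glia genes it was the only call, against 2.48% of all genes called. Without replicate 23, 2 of these genes were higher and 1 lower, against 4.63%. Btc, the growth factor betacellulin of repair Schwann cells, was at 1.28, 1.72, 1.03, 0.911 and 0.831 CPM and reached 3.02, 6.92 and 5.18 CPM (log2 2.13). Tnc, the matrix protein tenascin C, went from 3.151, 3.446, 3.828, 2.095 and 2.123 CPM to 13.35, 23.02 and 7.553 CPM (log2 2.36). In Gfap, Btc and Tnc, SNI 18 was the highest library. Of 37 fibroblast and matrix genes 6 were higher and 1 lower, against 2.48% of all genes called, with a median of 0.04. Without replicate 23, 7 were higher and 0 lower, against 4.63%, with a median of 0.155. Postn (log2 1.27), Timp1 (1.56) and Ly6a (1.39) were among the rises. The fall was Comp, which lost its call without replicate 23 (adjusted p = 0.133). Myelinating Schwann cell genes summed to 9110 to 13820 CPM in naive ganglia and to 8222, 8352 and 7513 CPM after SNI. Of 18 of them only Ugt8a was called, lower, at an adjusted p of 0.0477 (0.0507 without replicate 23), against 2.48% of all genes. Without replicate 23 the 1 call was Pmp22, lower (adjusted p = 0.033 by edgeR), against 4.63%.

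Genes of neighbouring tissue varied by library, and their calls stand beside 2.48% of all tested genes called. Skeletal muscle genes summed to 260, 111, 127, 98.5 and 180 CPM in naive replicates 1, 2, 3, 6 and 7 and to 71.2, 681 and 164 CPM in SNI 15, 18 and 23, and none of 18 was called by edgeR, DESeq2 or limma-voom, with 1 at an unadjusted p under 0.05. Adipocyte genes summed to 17.1, 11.6, 54.1, 11.8 and 12.4 CPM and to 55.1, 142 and 79.2 CPM. Car3, a carbonic anhydrase of fat and muscle, was the 1 call of that list, at 3.83 to 12.1 CPM in naive ganglia and 43.7, 70.3 and 44.0 CPM after SNI. SNI 18 was the highest for both tissues, and the part of carried-over tissue in the matrix and Car3 values was not tested.

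**Figure D4:**
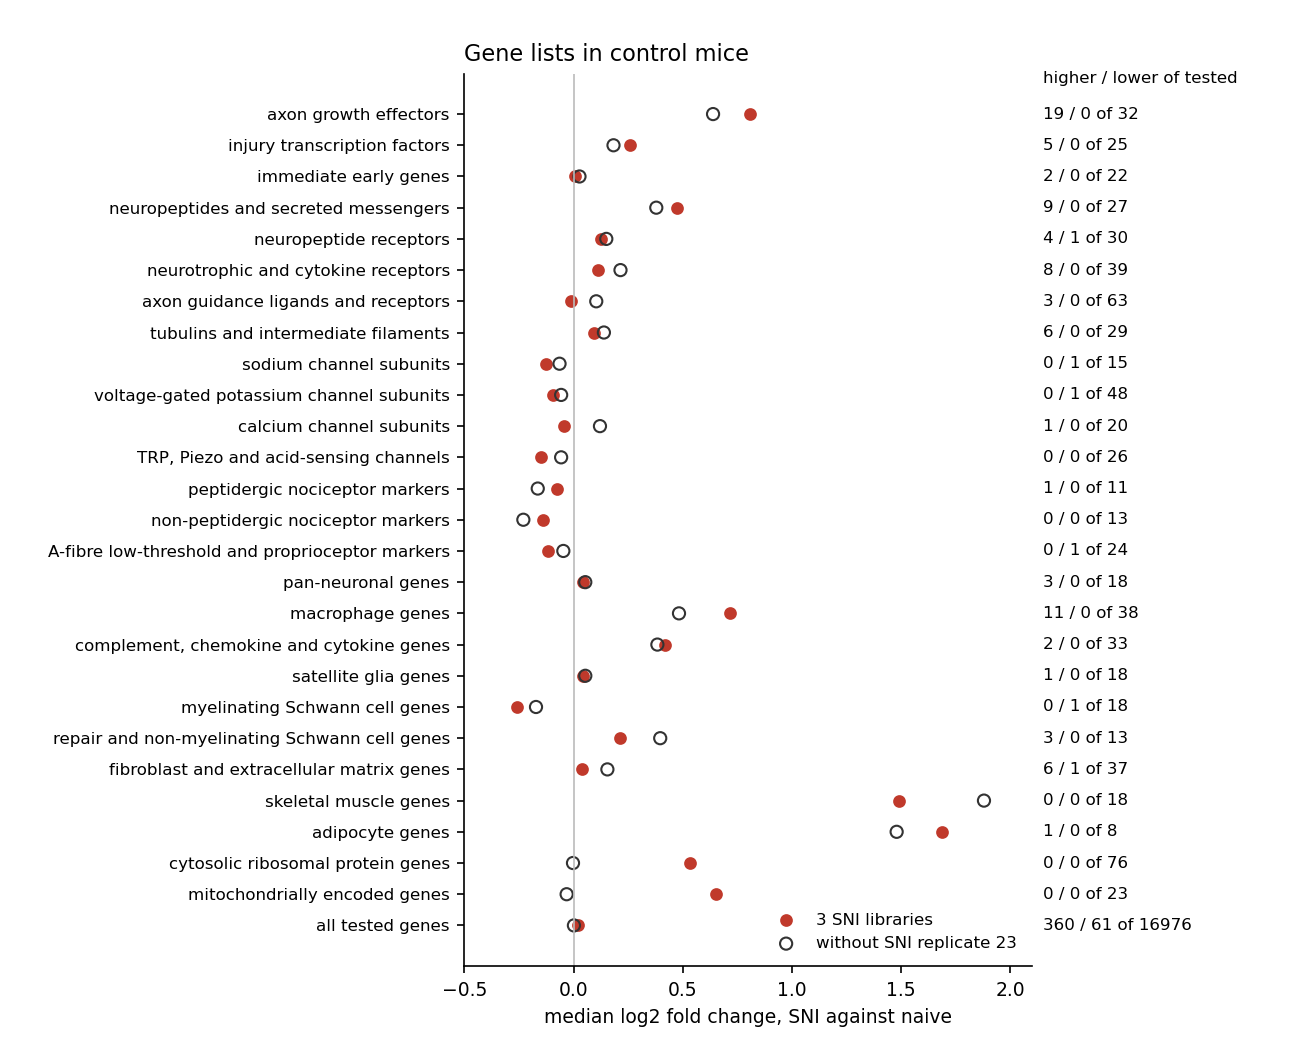
Median log2 fold change of SNI against naive for 27 gene lists, with all SNI libraries and without SNI replicate 23, with the number called higher and lower of those tested at the right. Growth effectors (0.81 and 0.64) and macrophage genes (0.72 and 0.48) lie to the right, and ribosomal protein genes move from 0.53 to 0.00 when replicate 23 is left out.

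Replicate 23 also set the level of the ribosomal protein and mitochondrial lists, besides the neuropeptides and peptidergic markers above. Ribosomal protein genes had a median log2 difference of 0.53 with it and -0.00 without it, and summed to 8684 CPM in that library against 2997 and 3771 CPM in SNI 15 and 18 and 3095 to 3714 CPM in naive ganglia. Mitochondrially encoded genes had medians of 0.65 and -0.03. Of 76 ribosomal protein and 23 mitochondrial genes edgeR called 0 with replicate 23, with 36 and 12 at an unadjusted p under 0.05, while DESeq2 called 3 and 2 and limma-voom 1 and 0. Lars2, a mitochondrial leucyl-tRNA synthetase, was at 83.8 to 135 CPM in naive ganglia, at 265 and 246 CPM in SNI 15 and 18, and at 1389 CPM in SNI 23, with log2 fold changes of 2.48 (adjusted p = 0.019) and 1.18 without it (adjusted p = 0.0493).

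Mice lacking the cluster (Wnt1-Cre; mirflox/flox, 4 naive and 3 SNI) were used to ask whether any change differed with genotype. In them 1717 genes (10.1%) were called for SNI against naive, and 306 of the 421 control calls were among these. By edgeR 0 of 16976 genes (0%) were called for the difference between the injury effects, with 2281 at an unadjusted p under 0.05 and a smallest adjusted p of 0.0872. DESeq2 called 12. Without SNI 15 edgeR called 1235, without SNI 18 or SNI 23 it called 1 each, and without any 1 naive library 0. All mice lacking the cluster carried Wnt1-Cre, while of the injured control mice only SNI 15 did. Loss of the cluster and Cre status are therefore not separated in this difference. Flnc, the actin crosslinker filamin C, had the smallest p: it was at 12.7, 9.99, 10.5, 10.5 and 11.2 CPM in naive control ganglia and 18.9, 29.6 and 14.2 CPM after SNI (log2 0.96), and rose by 2.57 in mice lacking the cluster. Flnc was the gene called without SNI 23.

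For the leading genes both genotypes moved the same way. Atf3 rose by 4.26 in control mice and 5.31 in mice lacking the cluster, Sprr1a by 7.93 and 8.69, Jun by 1.12 and 1.66, Ecel1 by 4.73 and 7.14, and Calb2 fell by 1.88 and dropped by 2.21, all on the log2 scale. Btc (2.13 and 0.29), Ly6a (1.39 and 0.17) and Postn (1.27 and 0.44) were called in control mice alone, but the difference was not called for any of them (adjusted p = 0.365 each).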

How the data were processed

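Each library is messenger RNA (stranded TruSeq kit, per the labels' protocols) from 1 mouse. The p-values rest on the spread between animals, shared over the 4 groups of all 15 libraries. The median SD of log2 CPM was 0.307 in control SNI, 0.163 there without replicate 23, and 0.15 in control naive libraries. In mice lacking the cluster it was 0.143 (naive) and 0.153 (SNI). A shared spread can understate that of the injured control mice. The deposited table holds whole-number read counts per gene for 39179 identifiers in 15 libraries. Per the submitters' processing notes, the build was GRCm38 and the tools were HTSeq 0.6.1, DESeq2, Cufflinks, TopHat2 2.0.4 and SAMtools. Not given in the sources used here were the annotation release, strand setting and handling of multiply matching reads, so overlapping, antisense and near-identical genes are uncertain. GENCODE M21 named 37607 identifiers, and the unnamed ones held 0.523% of counts.

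Of 27310 genes with a count, 16976 passed filterByExpr of edgeR (minimum count 10), and those left out held 0.131% of counts. A model of the 4 group means over all 15 libraries was fitted by edgeR 4.0.16 (TMM, robust quasi-likelihood F test, two-sided), with 11 residual degrees of freedom and a common biological coefficient of variation of 15.3%. Calls used a Benjamini-Hochberg adjusted p under 0.05 over all tested genes. Log2 CPM used a prior count of 2. Lists are described by counts and medians, with no test. A ratio from 1 to 3 naive counts carries a 95% counting interval, and a naive count of 0 was set to a floor of 3 counts. The fit was tested on simulated data. Promoter windows came from RefSeq (GRCm38.p6), matched by symbol for 11973 tested genes.

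The comparison, the gene lists and the settings were chosen with earlier results of these data known. Genes named were the 15 largest rises and 15 largest falls that were called, reached a mean of 1 CPM in the higher group and did not overlap, the 10 largest rises and falls in CPM, up to 8 members of each list by p, a set of injury genes, and the 10 with the smallest p among calls that depended on SNI replicate 23 in either direction. Not every such gene is named. Alternatives were DESeq2 1.42.0, its size factors in edgeR, limma-voom (limma 3.58.1) with quality weights, the control libraries alone, 2 other filters, mitochondrial genes removed, a Cre term, each Cre status alone, an Xist term and each library left out. Software was R 4.3.3 and Python 3.11.15, with matplotlib 3.10.9, pandas 2.3.3, SciPy 1.17.1 and NumPy 2.4.6.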

Additional observations from a re-analysis of the deposited data

Results flagged for a closer look

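Among the 5 naive control libraries, 11 of 147 values examined (genes and summed lists) had 1 library far from the others, a gap that chance gives in about 1 of 20 groups. Low values were Gadd45a at 11.0 CPM in naive 1 (median 13.8), Lgals1 at 152 CPM (187), Lgals3 at 21.1 CPM (27.6) and Map7d2 at 613 CPM (699), the last 3 in naive 6. High values were Flrt3 at 22.6 CPM in naive 2 (median 14.8), the pan-neuronal sum at 17400 CPM in naive 2 (15500) and the adipocyte sum at 54.1 CPM in naive 3 (12.4). In the remaining 4 the gap was a single count: Crh at 0 in naive 7, Lipn at 0 in naive 6, Tnfrsf8 at 0.0923 CPM in naive 7 and Ucn at 0.0985 CPM in naive 1.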

How the results depend on the processing

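Against 421 calls (360 higher, 61 lower), the 8 control libraries alone gave 213 (197 and 16), DESeq2 673 (547 and 126), limma-voom with quality weights 881 (628 and 253), a Cre term 273 (245 and 28), Wnt1-Cre mice alone 120 (116 and 4) and wt mice alone 70 (60 and 10, with 1 naive mouse assumed to vary like the other groups). Leaving out 1 library gave 283 to 1506 calls, 251 to 1095 higher and 25 to 411 lower. The difference between genotypes, with 0 calls, had 12 by DESeq2 and 0 to 1235 on leaving out 1 library. The cause of these shifts was not tested. An Xist term, added after seeing the data, gave 323 calls, of which 301 were shared, and 736 against 796 without SNI 23. All 421 calls kept their sign under the Cre term, the Xist term and within wt mice, and 419 did within Wnt1-Cre mice. Those fits reuse libraries from which the 421 were called, so the same sign was favoured in advance. Of 382 genes followed, 97 had the other sign under at least 1 alternative, 64 of them within Wnt1-Cre mice, 25 without SNI 18 and 17 without SNI 23. Of these only Apod was among the 421 (-0.07 within Wnt1-Cre mice), and those called with the other sign were Pcbd1 on leaving out 1 library (-0.38 without SNI 23 to 0.40 without SNI 18, against 0.15) and, with the Xist term, the Y-linked Eif2s3y (1.01) and Kdm5d (0.80). No paired analysis was possible because the groups share no replicate numbers. With 3 injured mice, 1 of them shallow, small changes in low genes are not detectable.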

Other observations

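Cholesterol synthesis genes, which the account above leaves out, showed 1 rise and 1 fall among 24 tested, against 2.48% of all genes called. Hsd17b7, a late enzyme of the pathway, was at 86.7, 86.8, 86.5, 73.7 and 79.2 CPM in naive ganglia and at 136, 120 and 143 CPM after SNI (log2 0.69, SE 0.12, adjusted p = 0.00386 by edgeR), and was called in all 8 omissions. Lss, lanosterol synthase, was at 104, 87.5, 104, 88.1 and 93.6 CPM and at 71.0, 69.7 and 58.7 CPM (fell by 0.52 on the log2 scale, adjusted p = 0.0218), and was called in 5 of 8 omissions, with the weakest support without naive 1 (adjusted p = 0.0605). None of 11 genes of tetrahydrobiopterin synthesis was called by edgeR, DESeq2 or limma-voom with all SNI libraries, and 1 had an unadjusted p under 0.05. Gch1, its rate-limiting enzyme, was at 2.49 to 4.02 CPM in naive ganglia and at 5.53, 4.44 and 5.39 CPM after SNI, with no overlap and no call (log2 0.56, adjusted p = 0.118).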
